A study of Mus musculus with 6 samples.

Results

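The nuclear genes that encode subunits of the 5 complexes of oxidative phosphorylation were compared between hearts of 4-day-old Wtap-CKO and Wtapflox/flox mice. They were the protein coding genes whose symbols carry the family names of the subunits: Nduf, Sdh, Uqcr and Cyc1, Cox4 to Cox8, and Atp5. The rule found 87 of the 54532 genes in the table, which holds 22046 protein coding genes. Of these, 38 fell in complex I, 4 in complex II, 9 in complex III, 18 in complex IV and 18 in complex V. The symbols place a few genes with their family and not with their known role. Ndufa4 is counted with complex I although its product is known as a subunit of complex IV, Cox7a2l encodes an assembly factor of respiratory supercomplexes, and Atp5s is not a structural subunit.

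Oxidative phosphorylation takes place in the inner membrane of mitochondria. Complexes I and II pass electrons from NADH and succinate to ubiquinone, complex III passes them on to cytochrome c, and complex IV hands them to oxygen. Complexes I, III and IV pump protons while doing so, and complex V, the ATP synthase, lets the protons flow back to make ATP. Most subunits are encoded in the nucleus and the rest on mitochondrial DNA. Heart muscle depends heavily on this pathway. After birth it moves from sugar towards fatty acids as fuel, and several subunits of complex IV exist as a ubiquitous form and a form typical of heart and skeletal muscle.

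Whole hearts were taken from mice aged 4 days, 3 with the genotype Wtapflox/flox, called Wtap-flox here, and 3 labelled Wtap-CKO, a conditional knockout. WTAP is a regulatory subunit of the complex that writes N6-methyladenosine on messenger RNA, and the series asks what it does in heart development. The 3 hearts of a group are described by the submitters as biological replicates. The Cre driver, the exons deleted, the age at which deletion begins, the strain and the sex are not given by the labels.

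The levels are FPKM, a read count divided by gene length and a size for each library, and each library held 15649028 to 18045599 reads assigned to genes. The size used was not that number of reads. One read per kilobase stood at 0.0564 FPKM in Wtap-flox 3, with 17115796 reads, and at 0.0567 FPKM in Wtap-CKO 3, with 18045599 reads. The values were 0.0629 FPKM in Wtap-flox 2, with 15649028 reads, and 0.0647 FPKM in Wtap-CKO 2, with 15812407 reads. Such a factor cancels when libraries are scaled to the same FPKM total. The targeted gene was not lower: Wtap stood at 7.77, 8.74 and 10.9 FPKM in Wtap-flox 1 to 3 and at 9.32, 7.75 and 9.46 in Wtap-CKO 1 to 3, with a log2 fold change of -0.04 (95% interval -0.37 to 0.29, limma, Benjamini-Hochberg adjusted p = 0.893). Exons that may be missing from its transcripts cannot be seen in a gene total, so the group names are those of the labels. A mean of 1 FPKM or more was required for testing, and of the 12568 genes tested 16.6% passed an adjusted p of 0.05 in limma, 9.91% higher and 6.69% lower in Wtap-CKO. Scaling each library to the same FPKM total (TPM) moved the median of all genes by -0.16 on the log2 scale and the split to 796 higher and 1584 lower. Of 9 cardiomyocyte markers, 0 passed, and their summed level was 16934 to 20606 FPKM over the Wtap-flox libraries and 18000 to 21868 FPKM over those of Wtap-CKO. Macrophage markers summed to 28.6 to 33.4 against 42.4 to 69.4 FPKM, with C1qa and C1qb among the 5 tested higher, and fibroblast markers to 358 to 413 against 282 to 418, with Dcn and Lum of 6 lower. Of 6 endothelial markers 1 was higher and 1 lower, of 7 smooth muscle and pericyte markers 0 were higher and 1 lower, and of 5 erythroid markers 0 passed, with sums of 660 to 2171 against 1226 to 2204 FPKM. No skeletal muscle marker reached the filter, and their sum was at most 1.51 FPKM. The part of these marker levels in the results that follow was not tested. In whole tissue, fewer cells of a type and less RNA per cell cannot be told apart.

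Of the 87 genes, 84 passed the filter and 3 were listed at 0 in every library: Cox7b2, Cox8c and the second of the gene IDs that carry the symbol Atp5o. The 84 had means from 4.78 FPKM for Ndufb2 to 1162 FPKM for Atp5a1, with a median of 148 FPKM. Each had at least 123.5 reads per library on average. The part of read depth in their spread was not tested. A single gene, Cox6a1 of complex IV, rose, and 0 of 84 fell by limma with Benjamini-Hochberg adjustment over all genes, against 9.91% and 6.69% of all tested genes. At an unadjusted p under 0.05, 3 were higher (Cox6a1, Cox8a and Cox7a2l) and 3 lower (Sdha, Ndufv1 and Ndufs1), against 17.5% and 14.2% of all genes. The groups did not overlap for 12 genes, 4 higher and 8 lower, against 19.8% and 17.3% of all genes. The median log2 fold change of the 84 was 0.05, with 47 above 0 and 37 below, and that of all tested genes was 0.00. With TPM scaling 20 were above 0 and 64 below, with a median of -0.12 against -0.15 for all tested genes. The counts lay below the background shares, a difference that was not tested.

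**Figure D1:**
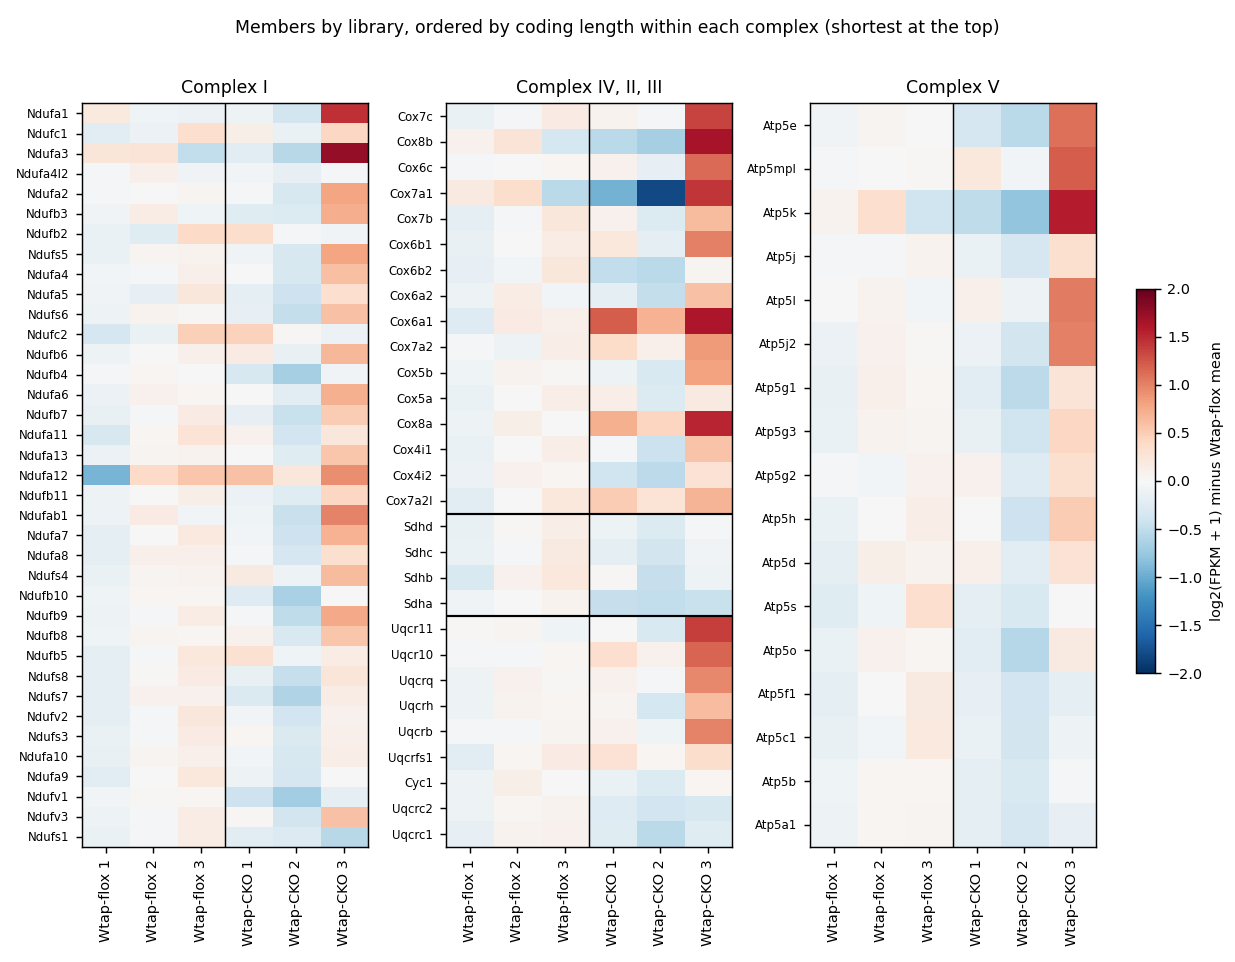
Level of 83 of the 84 tested nuclear oxidative phosphorylation genes in each library, as the difference in log2(FPKM + 1) from the mean of the 3 Wtap-flox libraries, with libraries in columns and genes in rows, grouped by complex and ordered from the shortest coding sequence at the top. Most genes are lowest in Wtap-CKO 2 and highest in Wtap-CKO 3, while Cox6a1 is raised in all 3 Wtap-CKO libraries.

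Cytochrome c oxidase, complex IV, held the one gene that rose. Cox6a1 (ENSMUSG00000041697), at chr5:115345642-115348981 on the minus strand of GRCm38, encodes the ubiquitous form of subunit 6a. It stood at 267, 356 and 341 FPKM in Wtap-flox 1 to 3 and at 741, 517 and 979 FPKM in Wtap-CKO 1 to 3. Every Wtap-CKO library lay above every Wtap-flox library. The mean went from 321 ± 47.9 to 746 ± 231 FPKM (SD, n = 3 each), a log2 fold change of 1.18 with a standard error of 0.25 (95% interval 0.61 to 1.74, limma, adjusted p = 0.0140). The adjusted p was 0.0554 with no filter on low levels, 0.0516 without Wtap-flox 1 and 0.0519 without Wtap-CKO 1. The log2 fold change stayed between 0.94 and 1.41 over all 20 alternatives, and 17 of them called the gene.

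Cox6a2 encodes the muscle form of the same subunit, and its level was that of a strongly expressed gene in both groups. It stood at 586, 701 and 608 FPKM in Wtap-flox 1 to 3 and at 547, 453 and 948 FPKM in Wtap-CKO 1 to 3, a log2 fold change of -0.03 (standard error 0.27, limma adjusted p = 0.952). The groups overlapped, since Wtap-CKO 3 was the highest library and Wtap-CKO 2 the lowest. The ratio of Cox6a2 to Cox6a1, which does not depend on library scaling, was 2.20, 1.97 and 1.78 in Wtap-flox 1 to 3 and at 0.738, 0.875 and 0.968 in Wtap-CKO 1 to 3. The muscle form thus had the higher FPKM in all 3 Wtap-flox hearts and the lower FPKM in all 3 Wtap-CKO hearts, although FPKM of these genes depends on the length assigned to each. The mean log2 ratio was 0.98 ± 0.15 for Wtap-flox against -0.23 ± 0.20 for Wtap-CKO (SD, n = 3 each), a difference of -1.20 (exact two-sided permutation p = 0.1, 0.25 after Benjamini-Hochberg adjustment over 5 isoform pairs). With 3 against 3 libraries, 0.1 is the smallest p that this test can give.

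Subunit 8 also has a ubiquitous and a muscle form, and neither passed the test. Cox8a, the ubiquitous form, stood at 320.4, 373 and 344 FPKM in Wtap-flox 1 to 3 and at 565, 467 and 995 FPKM in Wtap-CKO 1 to 3. The groups did not overlap, and the log2 fold change was 0.89 (standard error 0.27, 95% interval 0.28 to 1.499, limma adjusted p = 0.0530). The gene was called in 7 of 20 alternatives, among them the fit without Wtap-CKO 3. Cox8b, the muscle form, stood at 199.7, 225 and 147 FPKM in Wtap-flox 1 to 3 and at 128, 118 and 592 FPKM in Wtap-CKO 1 to 3. Both lower values and the highest value of Cox8b were thus in the Wtap-CKO group, and its log2 fold change of 0.15 had a standard error of 0.67 (limma adjusted p = 0.904). It turned to -0.02 with TPM scaling and to -0.60 without Wtap-CKO 3. The log2 ratio of Cox8b to Cox8a was lower by 0.74 in Wtap-CKO on average, and the groups overlapped in Wtap-CKO 3 (exact two-sided permutation p = 0.2, adjusted 0.333). Without Wtap-CKO 3 the difference was -1.17.

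The sequences before the starts of the ubiquitous forms Cox6a1 and Cox8a and the muscle form Cox8b are given with simple motifs marked. Those of Cox6a2, Cox7a1 and Cox7a2 are not shown, so the forms are not compared in general. NRF1 and factors of the ETS family, such as GABP, are known activators of many nuclear genes of the respiratory chain. Each line gives RefSeq sequence of GRCm38.p6 on the minus strand, 5′ to 3′, from 250 bases before to 20 bases after the annotated start, at chr5:115348939-115349208 for Cox6a1, chr19:7217597-7217866 for Cox8a and chr7:140900427-140900696 for Cox8b. Capitals mark matches to the palindrome CGCATGCG from the middle of the NRF1 site, the ETS core CCGGAAG or its reverse complement CTTCCGG, the core AAGGTCA bound by estrogen-related receptors or its reverse complement TGACCTT, and TATAAA or TTTATA.
Cox6a1: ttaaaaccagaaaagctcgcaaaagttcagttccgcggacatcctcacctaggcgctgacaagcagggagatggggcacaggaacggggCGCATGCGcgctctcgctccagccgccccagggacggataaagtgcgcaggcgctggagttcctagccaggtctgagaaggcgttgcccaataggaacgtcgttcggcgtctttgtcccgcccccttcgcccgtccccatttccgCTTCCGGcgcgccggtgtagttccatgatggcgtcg
Cox8a: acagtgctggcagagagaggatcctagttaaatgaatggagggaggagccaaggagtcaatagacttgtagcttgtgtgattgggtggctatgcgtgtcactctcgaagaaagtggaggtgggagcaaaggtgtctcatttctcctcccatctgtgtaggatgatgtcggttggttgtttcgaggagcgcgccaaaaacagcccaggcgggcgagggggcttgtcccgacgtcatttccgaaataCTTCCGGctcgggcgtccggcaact
Cox8b: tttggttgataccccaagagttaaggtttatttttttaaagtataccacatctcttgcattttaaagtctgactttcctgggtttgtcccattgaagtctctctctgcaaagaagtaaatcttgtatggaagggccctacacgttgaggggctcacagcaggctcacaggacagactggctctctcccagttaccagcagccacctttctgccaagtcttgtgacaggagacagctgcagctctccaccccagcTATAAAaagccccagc
The Cox6a1 window held the NRF1 palindrome from position -161 and the ETS core on the reverse strand from -16, counted from the start. Cox8a held the ETS core on the reverse strand from -5. Cox8b held neither, and carried TATAAA from position 5, past the annotated start. Of the 86 member symbols, 67 matched the RefSeq promoter table, with 72 windows. The NRF1 palindrome was in 11.1% of these windows against 1.73% of 32851 windows of the same length over all genes. The ETS core was in 20.8% against 8.08%, the receptor core in 6.94% against 4.34%, and the TATA sequence in 11.1% against 12.9%. These are counts of letters and say nothing about binding in these hearts.

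None of the 5 isoform pairs could pass the permutation test, whose smallest p is above the threshold. Cox7a1, the muscle form of subunit 7a, stood at 79.1, 89.1 and 47.9 FPKM in Wtap-flox 1 to 3 and at 35.7, 19.2 and 190.3 FPKM in Wtap-CKO 1 to 3. As with Cox8b, the Wtap-CKO group held the highest and the lowest libraries. Its log2 fold change was -0.44 with a standard error of 0.90 (limma adjusted p = 0.784), and it turned to 0.24 without Wtap-CKO 2 and was -1.38 without Wtap-CKO 3. Cox7a2, the ubiquitous form, stood at 216, 206 and 242 FPKM in Wtap-flox 1 to 3 and at 285, 236 and 397 FPKM in Wtap-CKO 1 to 3, with a log2 fold change of 0.43 (limma adjusted p = 0.192). The log2 ratio of Cox7a1 to Cox7a2 differed by -0.87 (exact two-sided permutation p = 0.4, adjusted 0.5). Wtap-CKO 1 and 2 lay below all Wtap-flox libraries in this ratio and Wtap-CKO 3 above them, and without Wtap-CKO 3 the difference was -1.61.

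Subunit 4 opens the assembly of the nuclear subunits around the catalytic core, and its second isoform is known from lung and from low oxygen. Cox4i1 was among the most abundant transcripts of complex IV, at 567, 619 and 676 FPKM in Wtap-flox 1 to 3 and at 605, 460.0 and 920.5 FPKM in Wtap-CKO 1 to 3. The groups overlapped, with a log2 fold change of 0.04 that was -0.13 with TPM scaling. Cox4i2 stood far lower, at 9.25, 10.8 and 10.5 FPKM in Wtap-flox 1 to 3 and at 7.47, 6.74 and 12.6 FPKM in Wtap-CKO 1 to 3. The log2 ratio of Cox4i2 to Cox4i1 was lower in each Wtap-CKO library than in each Wtap-flox library, by 0.25 on average (exact two-sided permutation p = 0.1, adjusted 0.25). Cox6b2, known as the testis form of subunit 6b, stood at 6.47, 7.04 and 8.76 FPKM in Wtap-flox 1 to 3 and at 4.97, 4.73 and 7.68 FPKM in Wtap-CKO 1 to 3, and did not pass the test (log2 fold change -0.33, limma adjusted p = 0.254).

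**Figure D2:**
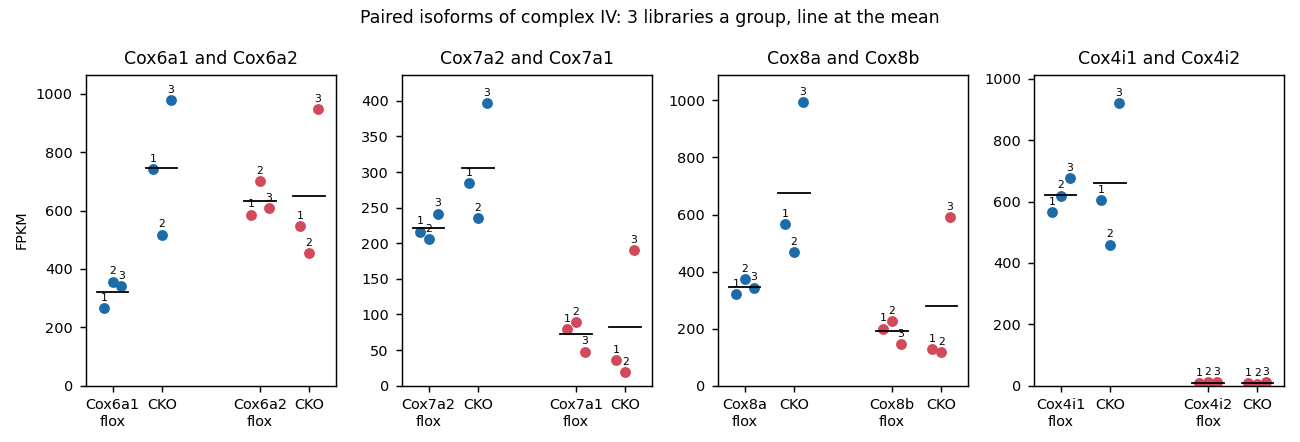
Levels of the ubiquitous and muscle forms of subunits 6a, 7a and 8 of complex IV in each library, with those of the paralogs Cox4i1 and Cox4i2, in FPKM on linear axes that start at 0, with a numbered point per library and a line at each group mean. Cox6a1 and Cox8a lie higher in all 3 Wtap-CKO libraries, and the muscle forms Cox6a2, Cox7a1 and Cox8b spread over the whole Wtap-flox range and beyond it.

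Of the 16 tested genes of complex IV, 1 rose and 0 fell, 12 had a log2 fold change above 0, and the median was 0.15. Fewer were above 0 in other settings: 7 of 16 with TPM scaling and 6 of 16 without Wtap-CKO 3. The median of complex IV was -0.02 with TPM scaling, against -0.15 for all tested genes. Without Wtap-CKO 3 it was -0.08, against 0.01 for all tested genes. Cox7a2l, named after its values were seen, stood at 151, 175 and 203 FPKM in Wtap-flox 1 to 3 and at 250.1, 212 and 281 FPKM in Wtap-CKO 1 to 3, without overlap (log2 fold change 0.49, limma adjusted p = 0.0956). Ndufa4 stood at 223, 226 and 249 FPKM in Wtap-flox 1 to 3 and at 233, 186 and 352 FPKM in Wtap-CKO 1 to 3. Its paralog Ndufa4l2, known to be induced by low oxygen, stood at 22.5, 24.9 and 21.9 against 22.3, 20.6 and 22.5 FPKM. Neither passed the test (limma adjusted p = 0.819 and 0.674), the sign for Ndufa4 turned with TPM scaling from 0.09 to -0.08, and the log2 ratio of the pair differed by -0.17 (exact two-sided permutation p = 0.7, adjusted 0.7).

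Complex II, succinate dehydrogenase, is made wholly of nuclear subunits, and all 4 had a log2 fold change below 0, with a median of -0.19. Sdha (ENSMUSG00000021577), at chr13:74322254-74350280 on the minus strand, encodes the flavoprotein that oxidises succinate in the citric acid cycle. It stood at 252, 264 and 276 FPKM in Wtap-flox 1 to 3 and at 192, 187 and 194 FPKM in Wtap-CKO 1 to 3. The 3 Wtap-CKO values lay close together and below all Wtap-flox values. The mean went from 264 ± 12.1 to 191 ± 3.88 FPKM (SD, n = 3 each), a log2 fold change of -0.47 with a standard error of 0.14 (95% interval -0.78 to -0.15, limma adjusted p = 0.0536). Sdha thus missed the threshold as tested, and 10 of 20 alternatives called it lower, among them TPM scaling and the fit without Wtap-CKO 3.

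The other subunits of complex II overlapped between the groups. Sdhb, the iron-sulfur subunit, stood at 179, 234 and 257 FPKM in Wtap-flox 1 to 3 and at 224, 161 and 206 FPKM in Wtap-CKO 1 to 3. Sdhc and Sdhd anchor the enzyme in the membrane. Sdhc stood at 95.6, 103 and 119 FPKM in Wtap-flox and 91.7, 80.9 and 101 FPKM in Wtap-CKO. Sdhd was the most abundant of the 4 in FPKM, at 336, 381 and 408 FPKM in Wtap-flox and 350.2, 310.2 and 366 FPKM in Wtap-CKO. Their log2 fold changes were -0.18 for Sdhb, -0.21 for Sdhc and -0.13 for Sdhd, with limma adjusted p values of 0.580, 0.383 and 0.624.

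Complex I, NADH dehydrogenase, takes in most electrons through a core of subunits that carry flavin and iron-sulfur clusters. All 7 nuclear genes of that core had a log2 fold change below 0, with a median of -0.25, and 0 of 7 passed the test. All 7 stayed below 0 with TPM scaling and without Wtap-CKO 3, while 4 of 7 were below 0 without Wtap-CKO 2 (median -0.07). The other 31 genes of the complex had a median of 0.09, with 21 above 0. Fewer of them were above 0 with TPM scaling (5, median -0.08), with the coding-length correction (7) and without Wtap-CKO 3 (6, median -0.18). The medians of all tested genes in these settings were -0.15, -0.01 and 0.01. Ndufv1, which holds the flavin that accepts electrons from NADH, stood at 205, 217 and 219 FPKM in Wtap-flox 1 to 3 and at 160.5, 131 and 185 FPKM in Wtap-CKO 1 to 3. The groups did not overlap, and the log2 fold change was -0.44 (standard error 0.17, limma adjusted p = 0.111).

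Ndufs1, the largest core subunit, was named after its values were seen. It stood at 56.4, 60.8 and 69.0 FPKM in Wtap-flox 1 to 3 and at 53.1, 50.8 and 41.9 FPKM in Wtap-CKO 1 to 3. All Wtap-CKO values lay below the Wtap-flox range, and in contrast with most genes of the pathway Wtap-CKO 3 was the lowest library (log2 fold change -0.35, limma adjusted p = 0.142). Among the accessory subunits Ndufb4 had the largest fall in the estimate, with 48.9, 51.6 and 49.9 FPKM in Wtap-flox and 39.9, 31.4 and 47.5 FPKM in Wtap-CKO (log2 fold change -0.35, limma adjusted p = 0.175). Its groups lay apart, by little in Wtap-CKO 3.

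At the other end of complex I stood Ndufa12 and Ndufa1, both accessory subunits. Ndufa12 stood at 23.0, 58.7 and 66.6 FPKM in Wtap-flox 1 to 3 and at 68.2, 52.7 and 86.1 FPKM in Wtap-CKO 1 to 3. The estimate of 0.58 (standard error 0.43, limma adjusted p = 0.408) was 0.11 without Wtap-flox 1, the single low library, and the groups overlapped. Ndufa1 stood at 132, 108 and 106 FPKM in Wtap-flox and 106, 89.0 and 316.2 FPKM in Wtap-CKO, so Wtap-CKO 3 alone was high. Its log2 fold change was 0.33 with a standard error of 0.48 (limma adjusted p = 0.686), and it was -0.23 without Wtap-CKO 3. For Ndufab1, the acyl carrier protein of the complex, the pseudogene Ndufab1-ps had a mean of 60.1 FPKM against 18.7 FPKM for the gene. The listed length of Ndufab1 is 6883 bases, with 471 coding bases, which lowers its FPKM, so these values do not compare reads. Reads may still be split between the copies.

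In complex III, ubiquinol-cytochrome c reductase, 0 of 9 genes passed the test. Uqcrc1 and Uqcrc2 form the core proteins on the matrix side. Uqcrc1 stood at 225, 266 and 268 FPKM in Wtap-flox 1 to 3 and at 212, 173 and 212 FPKM in Wtap-CKO 1 to 3, and Uqcrc2 at 224, 249 and 253 against 202, 186 and 194 FPKM. Neither overlapped between groups, with log2 fold changes of -0.35 and -0.31 (limma adjusted p = 0.183 and 0.172). Uqcrfs1, the Rieske iron-sulfur protein, had the highest mean FPKM of the complex, at 419, 501 and 547 FPKM in Wtap-flox and 593, 500.3 and 617 FPKM in Wtap-CKO (log2 fold change 0.22, limma adjusted p = 0.432), and it was -0.03 with quantile normalization.

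The 5 small accessory subunits of complex III all had a log2 fold change above 0, with a median of 0.34, against -0.22 for the 4 core and redox subunits. Without Wtap-CKO 3 the median of the 5 was 0.00496, with 3 above 0. Uqcr10 stood at 328, 328 and 344 FPKM in Wtap-flox 1 to 3 and at 419.8, 354 and 749.9 FPKM in Wtap-CKO 1 to 3, without overlap (log2 fold change 0.53, standard error 0.26, limma adjusted p = 0.210). Without Wtap-CKO 3 its log2 fold change was 0.21. Uqcr11 stood at 202, 205 and 187 FPKM in Wtap-flox and 196, 159 and 517 FPKM in Wtap-CKO (log2 fold change 0.35, standard error 0.42, limma adjusted p = 0.616), and its log2 fold change was -0.16 without Wtap-CKO 3. In both genes the highest library was Wtap-CKO 3.

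Complex V makes ATP in a head, F1, that is turned by a ring in the membrane. Atp5a1 and Atp5b encode the head's alpha and beta subunits, and Atp5a1 had the highest mean FPKM of the nuclear genes of the pathway. Atp5a1 stood at 1168, 1284 and 1307 FPKM in Wtap-flox 1 to 3 and at 1109, 995 and 1111 FPKM in Wtap-CKO 1 to 3. The groups did not overlap, but the difference was small (log2 fold change -0.23, standard error 0.16, limma adjusted p = 0.386). Atp5f1, subunit b of the peripheral stalk that holds the head still, stood at 155, 175 and 199 FPKM in Wtap-flox and 157, 134 and 154 FPKM in Wtap-CKO (log2 fold change -0.25, limma adjusted p = 0.325). The 5 head genes had a median log2 fold change of -0.17 and the 4 stalk genes of -0.12.

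The c ring is built from 1 mature protein that 3 genes encode. Atp5g3 was the most abundant in FPKM, at 446, 515 and 509 FPKM in Wtap-flox 1 to 3 and at 443, 369 and 653 FPKM in Wtap-CKO 1 to 3. Atp5g1 stood at 107, 126 and 121 against 101, 81.9 and 141 FPKM, and Atp5g2 at 116, 115 and 127 against 126, 99.4 and 149 FPKM. All 3 genes overlapped between the groups, with log2 fold changes of -0.16 for Atp5g1, 0.05 for Atp5g2 and -0.04 for Atp5g3, and the sign for Atp5g2 turned to -0.12 with TPM scaling. The 4 small membrane subunits had a median of 0.26, which was -0.12 without Wtap-CKO 3, and 2 of the 4 were then below 0. Of these Atp5mpl stood at 96.3, 97.04 and 99.4 FPKM in Wtap-flox and 113, 93.5 and 226 FPKM in Wtap-CKO (log2 fold change 0.45, 0.0739 without Wtap-CKO 3, limma adjusted p = 0.346 with all libraries). Atp5l stood at 25.5, 26.9 and 24.7 against 27.6, 23.9 and 53.6 FPKM (log2 fold change 0.35, limma adjusted p = 0.433), and in both genes Wtap-CKO 3 was far above the other 5 libraries.

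**Figure D3:**
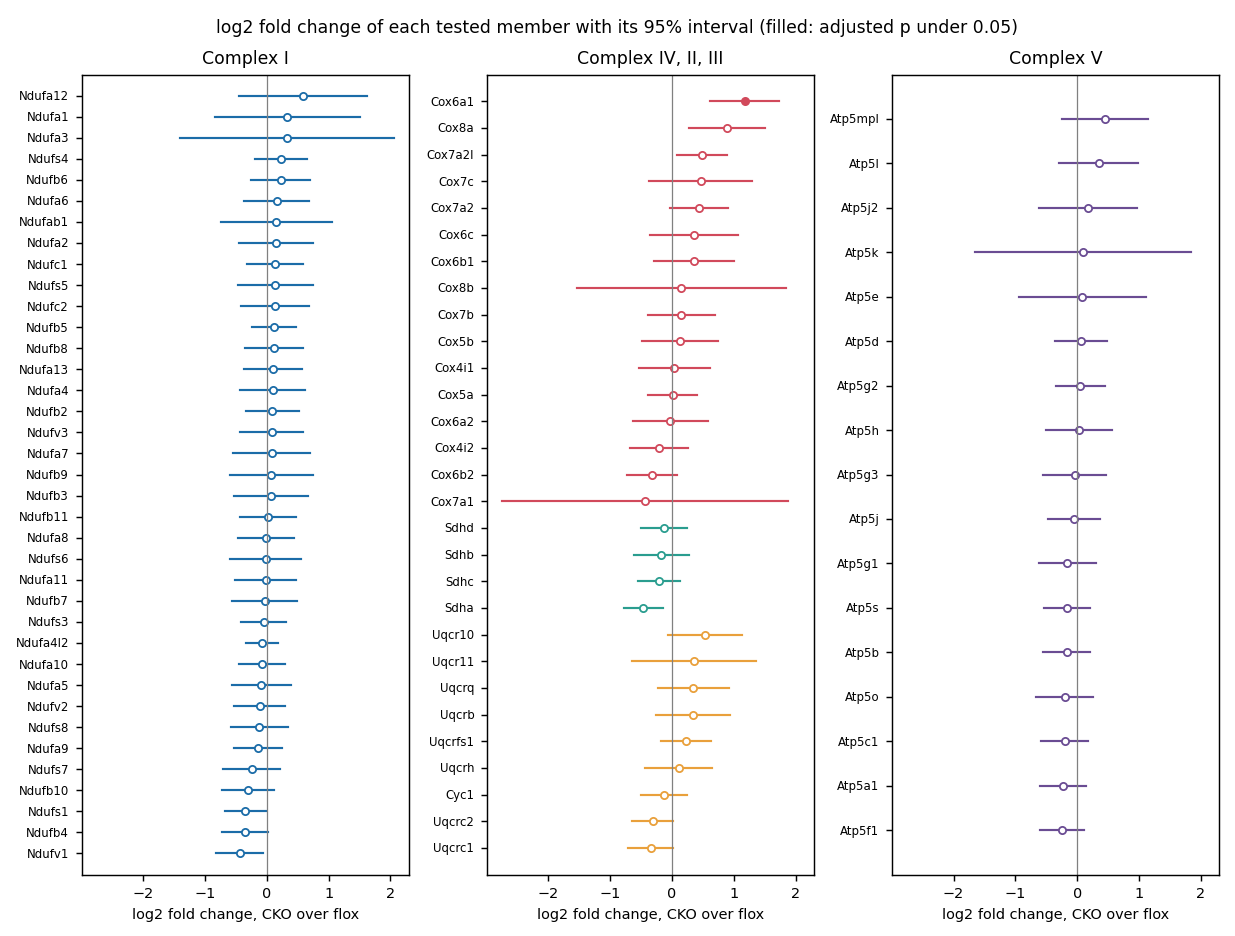
Log2 fold change of Wtap-CKO over Wtap-flox for 83 of the 84 tested genes, with 95% intervals from limma, ordered by complex and by estimate, and a filled point where the adjusted p is under 0.05. The interval of most genes covers 0, Cox6a1 stands at 1.18 and Sdha at -0.47, and intervals are widest for Cox7a1, Cox8b, Atp5k and Ndufa3.

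The medians of the 3 Wtap-CKO libraries differed from each other more than the medians of the Wtap-flox libraries did. Wtap-CKO 3 was the highest of the 6 libraries for 58 of 84 genes (69.0%, against 22.9% of all tested genes), and Wtap-CKO 2 was the lowest for 69 of 84 (82.1%, against 15.9%). Relative to the Wtap-flox mean, the median of the 84 genes was -0.06, -0.33 and 0.46 on the log2 scale in Wtap-CKO 1, 2 and 3, and -0.12, 0.03 and 0.08 in Wtap-flox 1, 2 and 3. The complexes did not follow Wtap-CKO 3 alike. The median in that library was 0.82 for complex IV, 0.61 for complex III, 0.42 for complex I and 0.32 for complex V, and -0.08 for complex II. The summed FPKM of complex IV was 3613, 4084 and 4097 in Wtap-flox 1 to 3 and at 4617, 3653 and 7814 in Wtap-CKO 1 to 3, and that of complex II 863, 981 and 1060 against 857, 739 and 868.

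The level in Wtap-CKO 3 moved with the length of the coding sequence, taken from the canonical transcripts of GENCODE. Genes with up to 300 coding bases had a median of 1.12 above the Wtap-flox mean in Wtap-CKO 3 (20 genes, log2 scale), and those of 300 to 450 bases 0.59 (25 genes). The median was 0.30 for 450 to 750 bases (22 genes), 0.02 for 750 to 1200 bases (8 genes) and -0.20 above 1200 bases (9 genes). Other tested genes ran in the same direction in that library, with medians of 0.52, 0.44, 0.18, 0.07 and -0.09 in the same bins. In Wtap-CKO 2 the bins of oxidative phosphorylation genes differed little, at -0.31, -0.28, -0.38, -0.33 and -0.38. Over the 84 genes Spearman's rho between length and level was -0.71 in Wtap-CKO 3, -0.18 in Wtap-CKO 1 and -0.18 in Wtap-CKO 2. It was -0.42, -0.03 and 0.33 in Wtap-flox 1 to 3. Over 11122 tested genes with a coding length, rho was 0.37, 0.05 and -0.41 in Wtap-flox 1 to 3. In Wtap-CKO 1 to 3 it was -0.25, 0.07 and -0.33. The genes of a library share its depth and preparation, so these are descriptions. The part of length, fragment recovery or library preparation in the differences between complexes and subunit sizes was not tested.

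**Figure D4:**
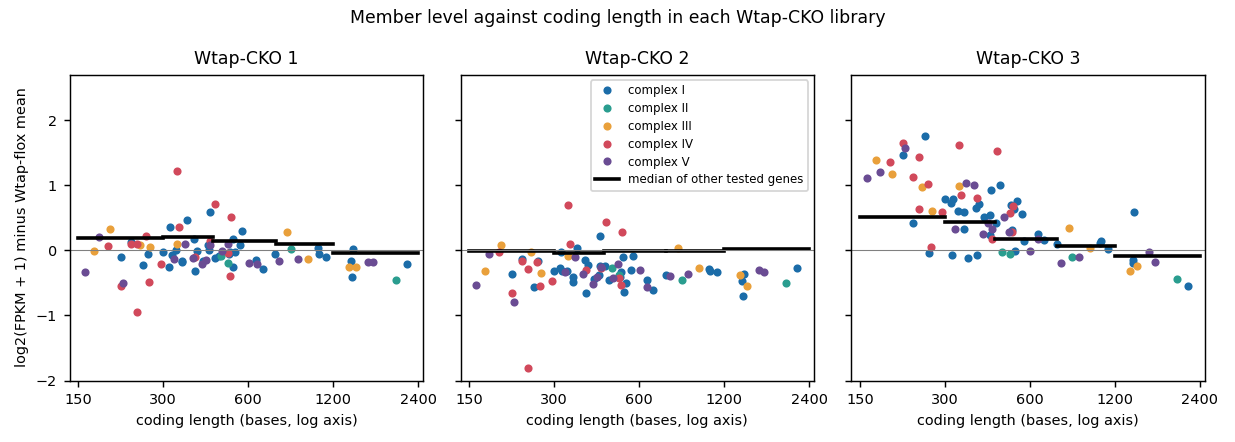
Difference of each oxidative phosphorylation gene from the Wtap-flox mean, in log2(FPKM + 1), against the length of its coding sequence in bases on a log axis, with a panel for each of the 3 Wtap-CKO libraries, points coloured by complex and black lines at the median of other tested genes in each length bin. In Wtap-CKO 3 the shortest genes lie highest and the longest mostly below 0, while in Wtap-CKO 2 genes of all lengths lie mostly below 0.

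Both observations touched the calls. Without Wtap-CKO 3, 2 genes were higher (Cox6a1 and Cox8a) and 4 lower (Sdha, Ndufv1, Cox4i2 and Cox6b2), against 9.5% and 6.51% of all tested genes, and 66 of 84 genes had a log2 fold change below 0, with a median of -0.21. After the smooth trend with coding length was subtracted in each library, a step chosen after seeing the data, 3 genes were higher (Cox6a1, Cox8a and Cox7a2l) and 7 lower (Ndufb10, Sdha, Uqcrc2, Ndufv1, Sdhc, Ndufb4 and Cox6b2), against 13.9% and 11.5% of the 11122 genes with a coding length, and the median was -0.12. With TPM scaling Cox6a1 was the one gene higher and 6 were lower (Sdha, Uqcrc1, Uqcrc2, Ndufv1, Ndufs1 and Ndufb4), against 6.33% and 12.6% of all tested genes. Cox6a1 was higher in each of these fits.

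Other genes of the pathway were counted by lists. Assembly factors build the complexes and are not part of them. Of 47 tested, 7 rose (14.9%) and 3 fell (6.38%), near the 9.91% and 6.69% of all tested genes. Their median log2 fold change was 0.11. With TPM scaling it was -0.05, against -0.15 for all tested genes. Cox19, a copper-handling factor of complex IV, went from 8.25, 12.01 and 8.51 FPKM in Wtap-flox 1 to 3 to 25.3, 22.0 and 29.8 FPKM in Wtap-CKO 1 to 3 (log2 fold change 1.34, standard error 0.17, limma adjusted p = 0.00174). Ndufaf4, a factor of early complex I assembly, went from 17.5, 20.5 and 22.6 to 43.2, 40.0 and 38.7 FPKM (log2 fold change 0.98, limma adjusted p = 0.00233). In both genes the Wtap-CKO libraries lay close together and far above the Wtap-flox range, Wtap-CKO 3 included. Coa7 and Coa3, factors of complex IV, rose by 0.77 and 0.91 on the log2 scale (limma adjusted p = 0.00392 and 0.0134). The 3 that fell were Acad9 and Tmem186, factors of complex I, and Uqcc1, a factor of complex III, with log2 fold changes of -0.49, -0.39 and -0.47 (limma adjusted p = 0.0253, 0.0373 and 0.0294), named after their values were seen. Over the alternatives, 3 to 8 assembly factors were higher and 0 to 4 lower.

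Some proteins feed electrons to the chain past complex I. Of 7 tested electron carriers and feeders, 0 rose and 2 fell, against 9.91% and 6.69% of all tested genes. Etfa, a subunit of the flavoprotein that collects electrons from fatty acid oxidation, stood at 190.2, 200 and 231 FPKM in Wtap-flox 1 to 3 and at 145, 135 and 144 FPKM in Wtap-CKO 1 to 3, a log2 fold change of -0.54 (standard error 0.15, limma adjusted p = 0.0361). Etfdh, which passes those electrons to ubiquinone, fell by 0.45 on the log2 scale, from 58.0, 55.7 and 61.1 to 47.6, 41.6 and 38.5 FPKM, and its limma adjusted p of 0.04996 lay at the threshold. Over the alternatives, 0 to 4 of the 7 were lower.

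Of 13 mitochondrially encoded subunits, 7 transporters of adenine nucleotides, phosphate and the outer membrane, and 18 regulators of oxidative phosphorylation genes, 0 passed the test in either direction, and over the alternatives at most 1 was higher and 3 lower in each of these lists. The mitochondrially encoded subunits had a median log2 fold change of -0.12, which turned to 0.10 without Wtap-CKO 3 and to 0.11 with array weights. Other scalings lowered the median of these subunits, to -0.29 with TPM scaling and -0.30 with scaling without mitochondrially encoded genes. Their summed FPKM was 68570 to 77653 in the Wtap-flox libraries and 79149 to 81294 in the Wtap-CKO libraries. The regulators included Ppargc1a, Nrf1, Gabpa, Tfam and Esrra, and all 18 were tested.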

How the data were processed

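Polyadenylated RNA of 6 hearts was sequenced as 150-base pairs on an Illumina NovaSeq, per the labels' protocols. CASAVA, HISAT2 2.0.5, featureCounts 1.5.0-p3 and DESeq2 1.20.0 are named in the submitters' processing notes. The authors deposited FPKM values for each gene and library. Multiplied by the listed gene length, 100% of values came out as whole reads within a tolerance of 0.01, so reads could be recovered. That length covers all exons of a gene, which lowers the FPKM of genes with long models. The notes name GRCm39, but 94.8% of 20815 genes had a start or end within 1000 bases of that in GRCm38.p6, against 3.36% of 21728 for GRCm39, so coordinates are given as GRCm38. Strandedness and the counting of overlapping genes are not stated in the sources used here. Of the members with values printed, Cox4i1, Ndufs1, Ndufa4l2, Atp5f1 and Atp5l overlap another expressed gene on the opposite strand, and their reads could be mixed.

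Genes averaging 1 FPKM or more were fitted with limma 3.58.1 (R 4.3.3) on log2(FPKM + 1), with trend and robust moderation, over 3 Wtap-flox and 3 Wtap-CKO libraries without covariates. Fold changes are on that scale, which understates changes of low genes, and two-sided p values were adjusted over all 12568 genes by Benjamini-Hochberg. The limma p values rest on the spread between 3 hearts per group and on variances shared over all tested genes. Moderation draws the variance of each gene towards a trend with mean level. For Sdha the standard error was 0.14 with the trend and 0.11 without it. Isoform ratios of FPKM + 1 were compared by exact permutation. The ratios printed per library are of FPKM itself. Promoters were read from RefSeq (GRCm38.p6), and coding lengths from GENCODE by gene ID. Tables and figures used Python 3.11.15, pandas 2.3.3, scipy 1.17.1 and matplotlib 3.10.9. The limma procedure was tested on simulated data. The simulation gave all genes the same dispersion and no trend with length, unlike libraries of both groups. Over 11122 tested genes, Spearman's rho between coding length and level was 0.37 in Wtap-flox 1, -0.41 in Wtap-flox 3 and -0.33 in Wtap-CKO 3. False calls at genes with few reads were not judged, so the shares over all genes were not checked there.

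The members and gene lists were chosen with earlier results of these data known. Values per library are given for members past the threshold, the 2 largest rises and falls in each complex, all Sdh genes, the highest mean in each complex, isoform pairs and c-ring genes, and for list members up to 4 past the test. The values of 1 member are not reported here, although the counts and medians include it. The alternatives were pseudocounts of 0.1 and 0.5, no filter, a mean of at least 5 FPKM, scaling by TPM, by upper quartile, by quantiles or without mitochondrially encoded genes, a replicate block, array weights, limma with no trend or no robust moderation, and each library left out. Limma-voom on recovered reads and the correction for coding length were further ones, the second chosen after seeing the data.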

Additional observations from a re-analysis of the deposited data

How the results depend on the processing

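The count of all genes changed was 1206 with no filter and 3732 with array weights, against 2086, and 1195 to 2012 with 1 library left out. The number of oxidative phosphorylation genes higher, 1 as reported, was 0 with no filter, 2 with a mean of at least 5 FPKM and 3 with array weights, limma-voom on recovered reads or the coding-length correction, and 0 to 2 with 1 library left out. The number lower, 0 as reported, was 1 without the trend, without robust moderation or with limma-voom, 2 with upper-quartile scaling, 4 with array weights, 6 with TPM scaling or scaling without mitochondrially encoded genes, 7 with the coding-length correction and 12 with quantile normalization, which called 8.0% of all genes lower, and 0 to 4 with 1 library left out. Of all tested genes, 2.66% were higher with no filter and 13.4% with a mean of at least 5 FPKM. Array weights called 16.4% higher and limma-voom 11.7%. The share lower was 9.48% with upper-quartile scaling, 13.3% with array weights and 12.7% with scaling without mitochondrially encoded genes. It was 6.63% without the trend, 6.34% without robust moderation and 8.46% with limma-voom. With 1 library left out, 5.64% to 9.5% were higher and 3.41% to 6.51% lower. The complex II median was -0.44 with quantile normalization and -0.37 with scaling without mitochondrially encoded genes.

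With upper-quartile, quantile, TPM and no-mitochondrial scaling and the coding-length correction, in that order, the log2 fold change was -0.0422, -0.18, -0.12, -0.13 and -0.11 for Atp5g2 and -0.0529, -0.21, -0.13, -0.14 and -0.10 for Cox4i1. With the last 4 of these it was -0.0268, -0.0184, -0.0279 and -0.12 for Cox8b and -0.12, -0.0752, -0.0854 and -0.11 for Ndufa4. With array weights it was -0.0452 for Cox4i1 and -0.43 for Cox8b, and with quantile normalization -0.0325 for Uqcrfs1. With 1 library left out the log2 fold change ran from -0.37 to 0.0217 for Atp5g1, -0.0913 to 0.20 for Atp5g2, -0.27 to 0.14 for Atp5g3, -0.23 to 0.27 for Cox4i1, -0.34 to 0.19 for Cox6a2, -1.38 to 0.24 for Cox7a1, -0.60 to 0.55 for Cox8b, -0.23 to 0.68 for Ndufa1, -0.16 to 0.30 for Ndufa4 and -0.16 to 0.69 for Uqcr11, and the log2 ratio of Ndufa4l2 to Ndufa4 from -0.34 to 0.0567. The median of the genes tested moved by -0.07, -0.03, -0.16, -0.15 and -0.01 with upper-quartile, quantile, TPM and no-mitochondrial scaling and the coding-length correction. Upper-quartile, TPM and no-mitochondrial scaling each divide a library by 1 number, which moves its well expressed genes nearly alike. The cause of the other changes was not tested. Of 32 named members, 21 kept their sign in all 20 alternatives.

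The labels number the hearts 1 to 3 in both groups but do not say that a number pairs them, and the deviations of same-numbered libraries correlated at -0.22, -0.08 and -0.08. With the replicate block 2 members were higher, since Cox8a passed at a limma adjusted p of 0.0494, and 0 lower. With 3 hearts per group, of which Wtap-CKO 3 stood apart, small differences are limited by the spread between libraries. The part of depth in that spread was not tested.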
